A study of Mus musculus with 2 samples.

Results

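The 7 genes described here are 6 inhibitors of cyclin-dependent kinases, Cdkn1a, Cdkn1b, Cdkn1c, Cdkn2a, Cdkn2b and Cdkn2c, and Trp53, which encodes the transcription factor p53. They were taken by gene name from the 22204 gene names in the count tables of 2 ovary sections, and each was found in both tables. Slide-seq, which captures the RNA of a frozen section on barcoded beads whose positions are known, was used on 1 section from a C57BL6/J female of 2 months (replicate 3, called the young section) and 1 from a C57BL6/J female of about 14 months (replicate 1, the old section). No treatment or transgene is given in the labels, the cycle stage of the females is not given there, and the sections were picked to show several oocytes. Each age has 1 library, so age cannot be told apart from animal, plane of section or library. No test between ages was made, and all 95% intervals cover counting error alone.

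Depth was 5158314 counts for the young section, from 21403 beads (median 153 per bead), and 2348768 for the old, from 10267 beads (median 125). No bead barcode was shared between them. Levels are in CPM, a gene's counts scaled to a common total of all counts in the section or area, and they describe a mixture of cells, because a bead can sit on several cells or on part of one. Fewer cells of a type and less RNA per cell cannot be told apart. Ovarian markers were present in both sections. The oocyte list stood at 3159.6 CPM (young) and 264 CPM (old), the granulosa list at 9510.3 and 2351, and the luteal list at 3175 and 4775.

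Cyclin-dependent kinases drive the cell cycle when bound to cyclins. The CIP/KIP inhibitors p21 (Cdkn1a), p27 (Cdkn1b) and p57 (Cdkn1c) bind complexes of kinase and cyclin, whereas the INK4 inhibitors p16 (Cdkn2a), p15 (Cdkn2b) and p18 (Cdkn2c) bind CDK4 and CDK6 and keep them from cyclin D. p53 activates Cdkn1a after DNA damage and other stress, and p21 and p16 are widely used as marks of senescent cells. In the ovary, granulosa cells divide in growing follicles and leave the cell cycle as they become luteal cells after ovulation, a step in which p27 and p21 are known to take part.

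2 of the genes are shown with the sequence before their transcription starts, since the values below give 1 level per gene while each of these genes has 2 annotated starts. The sequences are the 250 bases before each start, 5′ to 3′ on the gene's strand, from RefSeq (GRCm38.p6), which lists 6 of the 7 genes in its promoter table. For Cdkn1a, capitals mark matches to the p53 half-site, the 10-base consensus of which p53 binds a pair. For Cdkn2a, capitals mark GGGCGG, the core of an Sp1 site.
Cdkn1a upstream start: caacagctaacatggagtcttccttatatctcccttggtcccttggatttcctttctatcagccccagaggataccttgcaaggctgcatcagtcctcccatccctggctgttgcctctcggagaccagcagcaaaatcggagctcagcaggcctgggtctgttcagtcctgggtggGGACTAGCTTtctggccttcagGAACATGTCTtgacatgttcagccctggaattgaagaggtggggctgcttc
Cdkn1a downstream start: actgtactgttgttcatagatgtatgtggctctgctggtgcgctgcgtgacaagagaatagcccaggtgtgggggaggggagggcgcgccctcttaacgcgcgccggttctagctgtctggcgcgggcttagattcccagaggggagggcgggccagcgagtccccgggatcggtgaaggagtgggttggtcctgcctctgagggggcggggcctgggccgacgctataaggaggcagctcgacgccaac
Cdkn2a upstream start: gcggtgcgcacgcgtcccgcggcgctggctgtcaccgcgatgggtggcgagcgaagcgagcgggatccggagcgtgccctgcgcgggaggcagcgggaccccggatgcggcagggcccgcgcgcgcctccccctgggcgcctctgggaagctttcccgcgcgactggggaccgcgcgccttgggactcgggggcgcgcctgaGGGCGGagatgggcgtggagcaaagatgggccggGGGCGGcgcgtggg
Cdkn2a downstream start: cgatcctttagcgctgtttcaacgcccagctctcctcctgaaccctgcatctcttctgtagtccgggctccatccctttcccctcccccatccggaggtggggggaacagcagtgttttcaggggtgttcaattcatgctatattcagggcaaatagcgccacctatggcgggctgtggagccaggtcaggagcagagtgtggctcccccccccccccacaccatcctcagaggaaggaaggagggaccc
The upstream start of Cdkn1a (chr17:29090729-29090978, plus strand) holds GGACTAGCTT, whose first base lies 73 bases before the start, and GAACATGTCT, whose first base lies 51 bases before it. Such a pair of half-sites, 0 to 13 bases apart, was found in 0.0639% of 32851 promoter windows of this length, and a single half-site in 7.13%, with both strands searched. The stretch tgacatgttc directly after GAACATGTCT departs from the consensus in its first base only and was not marked. Which of these stretches p53 binds was not measured. The downstream start (chr17:29093519-29093768, plus strand), 2790 bases away, holds no half-site match in this window. The upstream start of Cdkn2a (chr4:89294620-89294869, minus strand), from which the p19Arf transcript is made, holds GGGCGG 2 times, and its downstream start (chr4:89282193-89282442, minus strand), from which p16Ink4a is made, holds none. GGGCGG on either strand is found in 32.7% of windows. These starts lie 12427 bases apart and their transcripts share exons, so the Cdkn2a level below does not separate p16Ink4a from p19Arf. Cdkn2b lies 11669 bases from Cdkn2a. A match is a description of the letters, and use of either start was not measured.

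Of the 7 genes, 5 were at least 1.5-fold higher in the old section and none was lower by that size. Cdkn1a, Cdkn1b, Cdkn1c, Cdkn2a and Cdkn2b were the 5, while Cdkn2c and Trp53 differed by less than 10% on either side. Among all 12586 genes with at least 20 counts in 1 section, 22.6% were higher and 25.4% lower by 1.5-fold, and the median ratio of old to young CPM was 0.988, against 1.73 over the 7. Without the old quadrant of low x and high y, 3 genes were higher by that size, as were 3 without periovulatory- and luteal-rich bins (defined below), and at a limit of 2-fold 3 genes were.

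**Figure D1:**
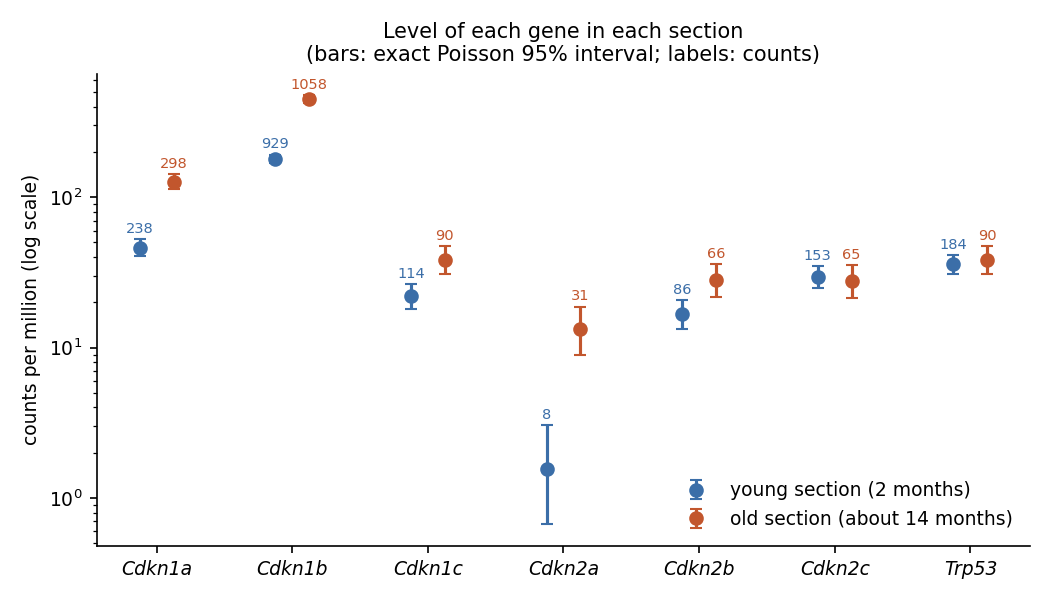
CPM of each gene in the young and the old section on a log axis, with exact Poisson 95% intervals and the number of counts above each point. The intervals of the 2 sections lie apart for Cdkn1a, Cdkn1b, Cdkn1c, Cdkn2a and Cdkn2b, and overlap for Cdkn2c and Trp53.

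Cdkn1a (chr17:29090979-29100722), which encodes p21, had 238 counts or 46.1 CPM (40.5 to 52.4) in the young section and 298 counts or 127 CPM (113 to 142) in the old. The ratio was 2.75 (2.31 to 3.27), and the share of beads with a count was 0.981% and 2.40%. The counts of the old section lay mainly in 1 kind of area. To place them, each section was divided into squares 5 bead spacings wide. Those holding 500 counts or more, 1338 young and 895 old, are called bins, and the 20% of bins highest in a marker list are called rich in it. Of the binned old counts of Cdkn1a 80.1% lay in the bins rich in the periovulatory list, genes induced in follicles before ovulation, which held 33.3% of all counts. Without those bins in either section the old over young ratio of Cdkn1a was 0.809, below 1. It was 7.30 without luteal-rich bins and 1.48 without both classes, all 3 alternatives added after seeing the data. The young list had 153 binned counts for 268 rich bins, so some of these held no list count and were taken by bin order. Every value given without periovulatory-rich bins thus leaves out a partly arbitrary set of young bins, with 22.9% of young binned counts.

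Cdkn1a stood at 305 CPM (233 counts) in periovulatory-rich bins and at 37.9 CPM (58 counts) elsewhere, a ratio of 8.05 (6.01 to 10.9) in the old section, beside 0.916 for the median gene. Adamts1, a matrix protease induced before ovulation, supplied 3571 of the list's 3784 counts, so these bins are mainly Adamts1-rich, and with the list without it the ratio was 2.24. The bins were also deeper, with a median of 4004 counts against 1878, and old Cdkn1a levels were 51.5, 54.4, 72.3 and 157 CPM from the shallowest beads to the deepest in 4 equal classes. The part of depth in the ratio was not tested. Most of these bins formed 2 patches, as the map of Cdkn1a by position shows. The patch of low x and low y (69 bins) held Cdkn1a at 458 CPM (378 to 549.9) and the patch of high x and low y (90 bins) at 239 (198 to 286), which do not overlap, while Cdkn1b stood at 313 CPM in each. Periovulatory-rich bins that were also granulosa-rich stood at 324 CPM, and those that were not at 292. Bins rich in granulosa genes alone stood at 36.6 CPM and bins rich in neither at 38.3, so Cdkn1a was high with the periovulatory list with or without granulosa markers.

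In the young section the periovulatory list had 154 counts in all, 121 of them from Adamts1, and was too low to sort bins. There Cdkn1a was high in luteal-rich bins, those rich in Sfrp4, Ptgfr, Prlr and other genes of the corpus luteum, the progesterone-making body formed from the ovulated follicle. Luteal-rich bins held 151 counts at 167 CPM and the other bins 83 counts at 19.8 CPM, a ratio of 8.40 (6.38 to 11.1), or 64.5% of Cdkn1a counts on 17.8% of all counts. For the old section the same list gave 24 counts at 53.5 CPM against 267 counts at 145 CPM elsewhere, a ratio of 0.370 (0.233 to 0.563). Luteal-rich bins as a whole thus had less Cdkn1a in the old section than in the young, at 53.5 against 167 CPM, a ratio of 0.321 (0.200 to 0.497). These bins can differ in kind between the sections, here and in the luteal comparisons below. Over the sections the genes of the list had old over young ratios from 0.525 for Onecut2 to 7.97 for Parm1. The part of such differences was not tested. Patches varied, and the 2 old luteal patches stood at 48.8 CPM (28.9 to 77.1, in 129 bins) and 129 (35.1 to 329.9, in 11 bins on 4 counts). The interval of the larger overlapped only that of the lowest young patch given below, and the interval of the smaller overlapped those of all young patches. The old periovulatory-rich bins are part of the other bins in that contrast. Old bins rich in neither list stood at 31.4 CPM (21.8 to 43.9), below the luteal-rich bins at 53.6 (34.3 to 79.8) that were not also periovulatory-rich, with overlapping intervals. Without the young quadrant of low x and high y the young ratio was 4.98, and without the old quadrant of low x and high y, which holds the larger old luteal patch, the old ratio was 0.750.

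**Figure D2:**
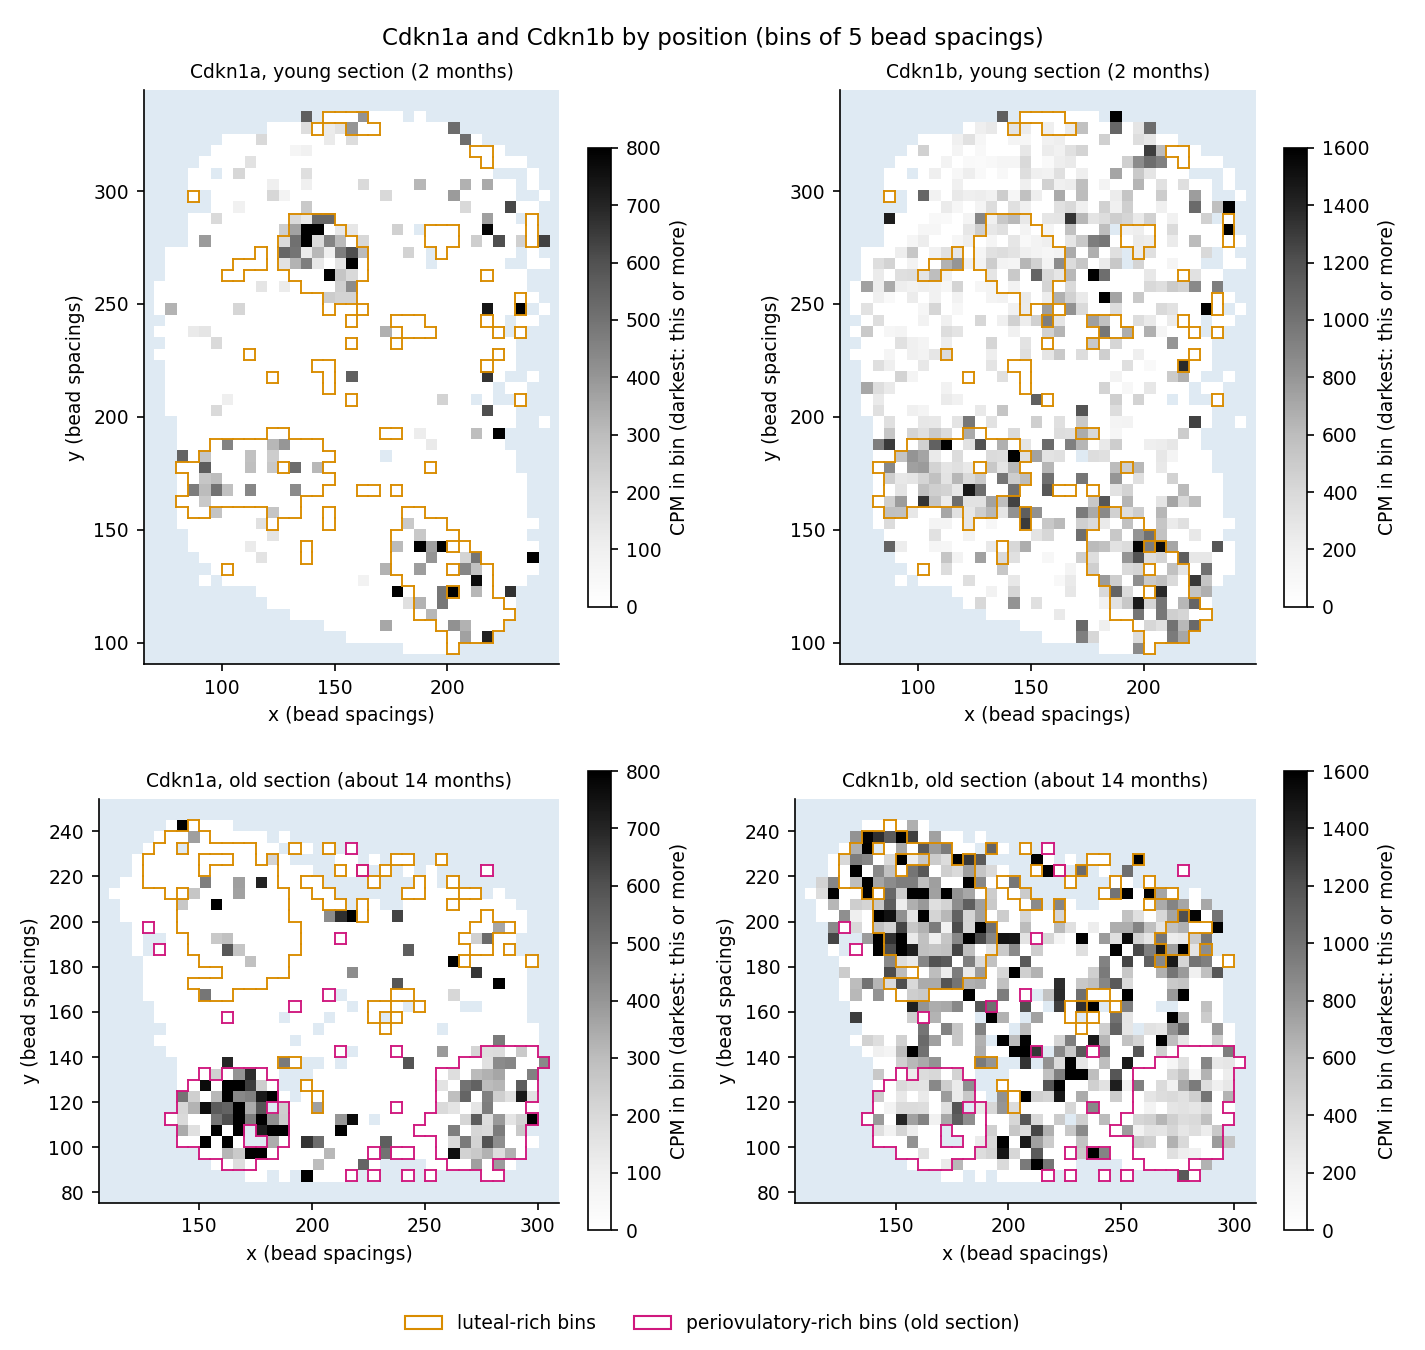
Position of Cdkn1a (left) and Cdkn1b (right) in the young (top) and old (bottom) section, in bins of 5 bead spacings, with the shade giving CPM in the bin and the outlines giving luteal-rich and, in the old section, periovulatory-rich bins; bins far from the tissue lie outside the drawn field. Cdkn1a is dense in the young luteal patch of low x and high y at 318 CPM and both old periovulatory patches, and Cdkn1b is spread over most of the old section, at 816 CPM in its larger luteal patch.

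The 3 luteal patches of the young section differed among themselves. Cdkn1a stood at 318 CPM (258 to 388) in the patch of low x and high y (50 bins), at 137 (89.4 to 201) in that of high x and low y (76 bins) and at 95.9 (61.5 to 143) in that of low x and low y (78 bins), the last pair overlapping. Cdkn1b had the opposite order, at 256 CPM (202 to 319), 453 (362 to 559) and 476 (394 to 569), the last pair again overlapping. Cdkn2b followed Cdkn1a, at 98.3 CPM (66.3 to 140.3), 68.5 (36.5 to 117) and 40.0 (19.2 to 73.5), with intervals that overlap. The patch with the most Cdkn1a was thus the one with the least Cdkn1b, and its luteal list stood at 17204 CPM against 9690.0 and 11186 in the others. Patches of 1 section are parts of 1 animal's ovary and not replicates.

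Cdkn1a was low in several kinds of bins away from luteal ones in the young ovary. It stood at 18.4 CPM in granulosa-rich bins (27 counts, ratio 0.323, 0.208 to 0.483, or 0.648 without the young quadrant of low x and high y) and at 14.7 in theca-rich bins (0.279, 0.146 to 0.487). Bins rich in interstitial genes, a list with 32140 of its 44341 young counts from Aldh1a1, had Cdkn1a at 9.06 CPM (0.173, 0.0686 to 0.361). Around the 13 oocyte foci, groups of bins with at least 10 oocyte-list counts making up at least 1% of the bin, its level was lower the nearer the focus, from 62.2 CPM beyond 20 bead spacings to 52.8 at 10 to 20, 41.5 at 5 to 10, 11.2 within 5 and 7.57 in the foci, on 4 counts. The level in foci was 0.122 (0.0327 to 0.320) of that beyond 20 spacings. Over the same rings the luteal list stood at 4604, 3423, 2166, 1291 and 352 CPM, and its part in the Cdkn1a gradient was not tested. Old interstitial-rich bins stood at 17.9 CPM (6 counts, ratio 0.123, 0.0447 to 0.271), against bins that include the periovulatory patches. Leaving out periovulatory-rich bins, interstitial-rich bins stood at 18.7 CPM (6.86 to 40.7) and the rest at 43.0 (32.1 to 56.4), which overlap. Its 2 oocyte foci held 34 beads and no Cdkn1a count, with an interval up to 201 CPM, so no gradient was detectable there.

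Young macrophage-rich bins had Cdkn1a at 79.8 CPM against 39.4 (2.03, 1.50 to 2.71), but 42.9% of the luteal-rich bins were also macrophage-rich. Split by both lists, Cdkn1a stood at 202 CPM (165 to 244) in bins that were luteal-rich alone, 118 (86.2 to 158) in bins rich in both, 47.0 (29.1 to 71.9) in bins that were macrophage-rich alone and 16.6 (12.7 to 21.3) in the rest. Bins rich in macrophage genes alone were therefore above the rest and below every luteal-rich class. The same split of the adipocyte list, whose young bins also overlap the luteal ones, gave 21.6 CPM (12.4 to 35.1) in bins rich in it alone and 19.4 (15.1 to 24.7) in the rest. Of that list only Plin1 and Plin4 had counts, and Adipoq, Cidec and Lep had none in either section. Its rich bins therefore cannot be called adipocytes. No bin outside the young adipocyte-rich or the old oocyte-rich class held a count of its list. Some bins of these classes may thus hold none and have been taken by bin order. Old macrophage-rich bins had 38.3 CPM against 141 (0.272, 0.139 to 0.482), a ratio whose comparison bins hold the periovulatory patches.

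**Figure D3:**
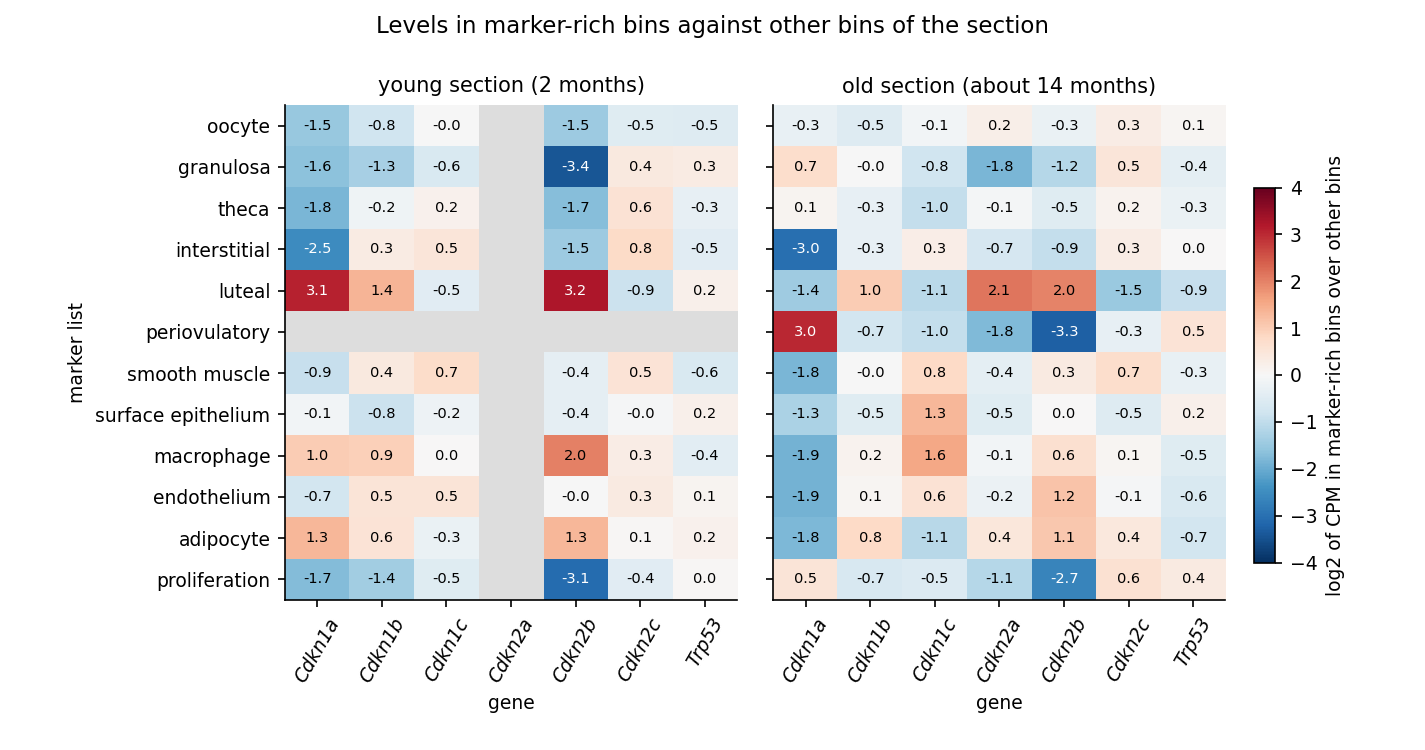
Log2 ratio of each gene's CPM in the 20% of bins rich in a marker list (rows) to that in the other bins, in the young (left) and the old section (right), with red for higher in rich bins. Grey cells had fewer than 200 list counts in the section or fewer than 20 counts of the gene, ratios are drawn down to 1/16, and Cdkn1a is red in young luteal-rich and in old periovulatory-rich bins. The adipocyte row rests on Plin1 and Plin4 alone.

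Cdkn1b (chr6:134920401-134925525), which encodes p27, had the most counts of the 7 genes. It had 929 counts or 180.1 CPM (169 to 192) in the young section and 1058 counts or 450.4 CPM (424 to 478) in the old, a ratio of 2.50 (2.29 to 2.73). Beads with a count made up 4.03% and 8.73%. Its higher old level was spread over the section. Every list of at least 200 counts in both sections had more Cdkn1b in its rich bins in the old section than in the young, from a ratio of 1.64 (1.34 to 2.02) in macrophage-rich bins to 5.13 (4.15 to 6.37) in granulosa-rich bins. Those bins differed in kind, since 30.7% of the old and 1.87% of the young ones were also luteal-rich. Granulosa-rich bins that were not luteal-rich had Cdkn1b at 86.7 CPM (72.2 to 103) when young and 317 (269 to 372) when old. These too can differ in kind, since the granulosa list stood at 24782 CPM in all young granulosa-rich bins and 4584 in all old ones. Without the periovulatory-rich bins the section ratio was 2.86, and without those and the luteal-rich bins 2.95, with both removals chosen after seeing the data. Over the same 4 depth classes old Cdkn1b stood at 446, 465, 481 and 439 CPM, with overlapping intervals. Young Cdkn1b stood at 190.4, 216, 227 and 156 CPM, lower in the deepest class (143 to 170.2) than in the next (201 to 256).

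In the young section Cdkn1b was high in luteal-rich bins and low in granulosa-rich and proliferation-rich bins. It stood at 359.5 CPM in luteal-rich bins (326 counts) and 140.2 elsewhere (587 counts), a ratio of 2.56 (2.23 to 2.94). In granulosa-rich bins it stood at 86.7 CPM against 217 (0.400, 0.329 to 0.483), and in bins rich in the proliferation list, of replication and mitosis genes such as Mki67 and Top2a, at 83.5 against 220.5 (0.379, 0.312 to 0.457). These last classes share 39.9% of their bins, and 45.1% of the proliferation-rich bins were oocyte-rich. Both were deeper than their comparison bins, with medians of 5289 against 2807 counts (granulosa) and 4908 against 2860 (proliferation). The part of depth in these Cdkn1b ratios was not tested. Proliferation-rich bins stood at 82.5 CPM (63.1 to 106) where oocyte-rich and at 84.5 (65.5 to 107) where not, and oocyte-rich bins that were not proliferation-rich at 172 (135 to 216). Cdkn1b was also lower toward oocytes, at 213 CPM beyond 20 spacings from a focus, 198 at 10 to 20, 148 at 5 to 10, 144 within 5 and 77.6 in the foci, a ratio of 0.365 (0.258 to 0.503) between the ends. The luteal list changed along these rings as given for Cdkn1a, and its part was again not tested. Outer bins, the nearer part to the edge of the tissue, had 0.653 (0.571 to 0.747) of the inner level, at 142 against 218 CPM.

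Old Cdkn1b was also high in luteal-rich bins, at 758 CPM (340 counts) against 376 (694 counts), a ratio of 2.02 (1.77 to 2.30), or 1.32 without the quadrant of low x and high y that holds the larger luteal patch. Granulosa-rich bins stood at 444 against 453 CPM (0.981, 0.852 to 1.13). Split by the luteal list, they had 821 CPM (687 to 973) where luteal-rich and 317 where not, beside 396 (364 to 431) in bins rich in neither. These bins held a granulosa list at 4584 CPM against 24782 in the young ones. Proliferation-rich bins remained lower, at 315 against 495 CPM (0.637, 0.539 to 0.749), and so did periovulatory-rich bins, at 314 against 519 (0.605, 0.522 to 0.700). Cdkn1a and Cdkn1b thus differed in opposite directions between periovulatory-rich and other bins. Outer bins had 0.704 (0.621 to 0.798) of the inner level, close to the young value. Interstitial-rich bins had Cdkn1b above the rest when young (1.26, 1.06 to 1.49) and below it when old (0.796, 0.654 to 0.961).

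Cdkn1c (chr7:143458339-143461059), the imprinted gene of p57, had 114 counts or 22.1 CPM (18.2 to 26.5) in the young section and 90 counts or 38.3 CPM (30.8 to 47.1) in the old, a ratio of 1.73 (1.30 to 2.31), or 2.62 without periovulatory- and luteal-rich bins. Its places in the old section differed in part from those of the other inhibitors, though its low level in luteal-rich bins was shared with Cdkn2c. Old Cdkn1c was high in bins rich in macrophage genes such as Ctss, C1qa and Lyz2, at 89.3 CPM (28 counts) against 30.3 (60 counts), a ratio of 2.95 (1.81 to 4.69). It was also high in bins rich in keratins and other genes of the ovarian surface epithelium, at 80.0 CPM (24 counts) against 32.1 (64 counts), a ratio of 2.49 (1.49 to 4.04). These classes shared 19 bins. Bins rich in macrophage genes alone stood at 82.8 CPM (53.1 to 123), bins rich in epithelial genes alone at 72.4 (44.2 to 112) and bins rich in neither at 23.5 (16.8 to 32.0), so each class stood above the rest without the other. That rest included periovulatory- and luteal-rich bins, where Cdkn1c stood at 23.6 and 20.1 CPM. Old bins rich in neither of those 2 lists, most macrophage- and epithelium-rich bins among them, stood at 56.4 (43.1 to 72.4), which overlaps both classes. The 3 patches of surface epithelium-rich bins held 62.8, 80.4 and 136 CPM on 9, 6 and 7 counts, with intervals that overlap. Both classes were shallower than their comparison bins, with medians of 1680 against 2249.5 counts (macrophage) and 1449 against 2254 (epithelium). Over the 4 bead depth classes, shallowest to deepest, old Cdkn1c stood at 17.2 (1 count), 89.0, 54.7 and 27.3 CPM. The deepest class (19.7 to 36.7) lay below the second (52.8 to 141). Young Cdkn1c was also lowest in the deepest class. The part of depth in the Cdkn1c ratios was not tested.

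In the young section neither class stood out for Cdkn1c, at ratios of 1.01 (0.573 to 1.68) for macrophage-rich and 0.875 (0.536 to 1.38) for surface epithelium-rich bins, the latter on a list of 536 counts. Within the rich bins the old over young ratio was 4.11 (2.19 to 7.88) for the macrophage and 4.10 (2.24 to 7.49) for the surface epithelium list. The surface epithelium list itself stood at 417 CPM in the young rich bins and 2931 in the old, so that ratio compares unlike bins. Smooth muscle-rich bins were above the rest by a similar amount in each section, at 1.67 (1.00 to 2.66) in the young and 1.72 (1.01 to 2.83) in the old. Cdkn1c was below the rest in old luteal-rich bins, at 0.469 (0.207 to 0.936) on 9 counts, and in old periovulatory-rich bins, at 0.515 (0.289 to 0.874). Young luteal-rich bins gave 0.729 (0.393 to 1.26).

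Cdkn2a (chr4:89274473-89294619), the gene of p16Ink4a and p19Arf, had 8 counts or 1.55 CPM (0.670 to 3.06) in the young section and 31 counts or 13.2 CPM (8.97 to 18.7) in the old. The ratio was 8.51 (3.83 to 21.4). On so few counts it moved to 17.3 without periovulatory-rich bins, 13.7 without the young quadrant of high x and high y and 5.47 without the old quadrant of low x and high y. The young periovulatory-rich bins, partly taken by bin order, held 4 of the 8 young counts of Cdkn2a. It was seen on 8 and 30 beads, or 0.0374% and 0.292% of those with counts. No young bead held more than 1 count of it and no old bead more than 2. The 31 old counts were not evenly placed. Luteal-rich bins held 16 of them at 35.7 CPM and the other bins 15 at 8.13 CPM, a ratio of 4.39 (2.03 to 9.54), or 2.81 without the quadrant of low x and high y. That quadrant held 51.6% of them on 24.8% of all counts. Granulosa-rich bins held 3 counts (0.279, 0.0543 to 0.903) and periovulatory-rich bins 4 (0.297, 0.0755 to 0.852). Of the 8 young counts, 5 lay in luteal-rich bins, a ratio of 7.69 (1.50 to 49.6) on numbers too small to place. Within luteal-rich bins Cdkn2a was higher in the old section, at 35.7 against 5.51 CPM (6.47, 2.27 to 22.6), the bins in which Cdkn1a was lower. As said for Cdkn1a, these bins can differ in kind between the sections.

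Cdkn2b (chr4:89306289-89311032), the neighbouring gene of p15, had 86 counts or 16.7 CPM (13.3 to 20.6) in the young section and 66 counts or 28.1 CPM (21.7 to 35.7) in the old. The ratio was 1.69 (1.20 to 2.35), and 1.15 without the old quadrant of low x and high y. It was 2.60 without luteal-rich bins and 3.27 without those and the periovulatory-rich bins. Cdkn2b was high in luteal-rich bins in both sections. In the young section these held 55 of the binned counts at 60.7 CPM against 27 counts at 6.45 CPM elsewhere, a ratio of 9.40 (5.83 to 15.5), or 4.61 without the quadrant of low x and high y. Old luteal-rich bins held 30 counts at 66.9 CPM against 31 counts at 16.8, a ratio of 3.98 (2.33 to 6.80), which was 2.14 without the quadrant of high x and low y and 7.79 without that of low x and high y. Within luteal-rich bins, which can differ in kind between the sections, the level did not differ beyond counting error, at 60.7 and 66.9 CPM (1.10, 0.682 to 1.75). It was low in follicle tissue, at 2.05 CPM in young granulosa-rich bins (3 counts, ratio 0.0940, 0.0190 to 0.285) and at 3.93 CPM in old periovulatory-rich bins (3 counts, ratio 0.104, 0.0208 to 0.318, with 0.0623 to 0.300 over the alternatives). Young macrophage-rich bins also had more, at 43.5 against 10.8 CPM (4.03, 2.53 to 6.38), and bins rich in macrophage genes but not in luteal ones stood at 24.6 CPM (12.3 to 44.1), above the 4.28 (2.45 to 6.95) of bins rich in neither.

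Cdkn2c (chr4:109660876-109666756), the gene of p18, had 153 counts or 29.7 CPM (25.1 to 34.8) in the young section and 65 counts or 27.7 CPM (21.4 to 35.3) in the old, a ratio of 0.933 (0.687 to 1.26). In luteal tissue, where Cdkn2b was high, it was low. Luteal-rich bins had less Cdkn2c than other bins in both sections, at 17.6 against 32.0 CPM in the young (0.551, 0.306 to 0.928) and 11.2 against 31.4 CPM in the old, on 5 counts (0.355, 0.111 to 0.877, or 0.159 in bins of 3 spacings). Young interstitial-rich bins had more, at 45.3 against 26.6 CPM (1.70, 1.13 to 2.51), which became 1.09 in bins of 8 spacings. In the young oocyte foci it stood at 11.4 CPM on 6 counts, 0.381 (0.134 to 0.879) of the level beyond 20 spacings.

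Trp53 (chr11:69580348-69591873) had 184 counts or 35.7 CPM (30.7 to 41.2) in the young section and 90 counts or 38.3 CPM (30.8 to 47.1) in the old, a ratio of 1.07 (0.825 to 1.39). No marker list separated its levels beyond counting error. All lists of at least 200 counts gave ratios of rich to other bins from 0.650 (smooth muscle) to 1.25 (granulosa) in the young section and from 0.528 (luteal) to 1.45 (periovulatory) in the old, and every one of these intervals held 1. Smaller areas did differ in the young section, where 2 luteal patches stood at 84.3 CPM (48.2 to 137) and 19.7 (7.21 to 42.8) on 16 and 6 counts. In the old periovulatory-rich bins, where Cdkn1a stood at 305 CPM, Trp53 stood at 48.4 CPM on 37 counts against 33.3 on 51 (1.45, 0.925 to 2.26). In the young luteal-rich bins, where Cdkn1a stood at 167 CPM, it stood at 39.7 against 34.9 (1.14, 0.768 to 1.65). In the young oocyte foci it stood at 20.8 CPM, 0.521 (0.250 to 0.985) of the level beyond 20 spacings. Its mRNA level says nothing of p53 protein, which is set largely by degradation.

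The bins were also grouped by their expression without the 7 genes, and each region is called by its 3 leading genes. 13 regions were found, and no region had 20 bins in each section, so regions were described within a section. Cdkn1a was highest in the young region of Onecut2, Lgals3 and Akr1c18 (245 bins), at 170.4 CPM (144 to 199.6), and in the old region of Adamts1, Spp1 and Ptgs1 (192 bins), at 276 CPM (242 to 314). In the other young regions it lay between 5.01 and 54.3 CPM, the latter (37.8 to 75.5) in the region of Rarres2, Dcn and Nop10. In the other old ones it lay between 8.18 and 52.2. Cdkn1b ranged from 82.7 CPM (65.0 to 104) in the young region of Ank3, Col9a2 and Cables1 to 359.7 (322 to 401) in the young Onecut2 region. Among old regions it ranged from 237 (159 to 341) in the region of Kctd14, Mir6236 and Serpine2 to 802 (705 to 909) in that of Hsd17b7, Bace2 and Unc13d, whose first gene encodes an enzyme of cholesterol synthesis.

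The remaining genes partly shared these regions. Cdkn1c was highest in the young region of Rarres2, Dcn and Nop10, at 51.2 CPM (35.2 to 71.8), and in the old region of Abcb1b, Igfbp4 and Trf, at 70.8 (49.8 to 97.5). Cdkn2b was highest in the young Onecut2 region, at 62.4 CPM (47.1 to 81.0), and in the old region of Apoe, Neat1 and AU020206 (35 bins), at 133 (60.9 to 253) on 9 counts. Cdkn2a stood at 29.6 CPM (3.58 to 107) on 2 counts in that Apoe region, at 29.3 (13.4 to 55.7) on 9 counts in the old Hsd17b7 region and at 21.2 (9.14 to 41.7) on 8 counts in the old region of C3, Abcb1b and Wnt10b. Trp53 stood at 51.8 CPM (38.1 to 68.9) in the young Ank3 region, where Cdkn1b was lowest, at 21.5 (11.8 to 36.1) in the young region of Inhba, Inhbb and Cyp19a1, and at 47.6 (34.1 to 64.5) in the old Adamts1 region.

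**Figure D4:**
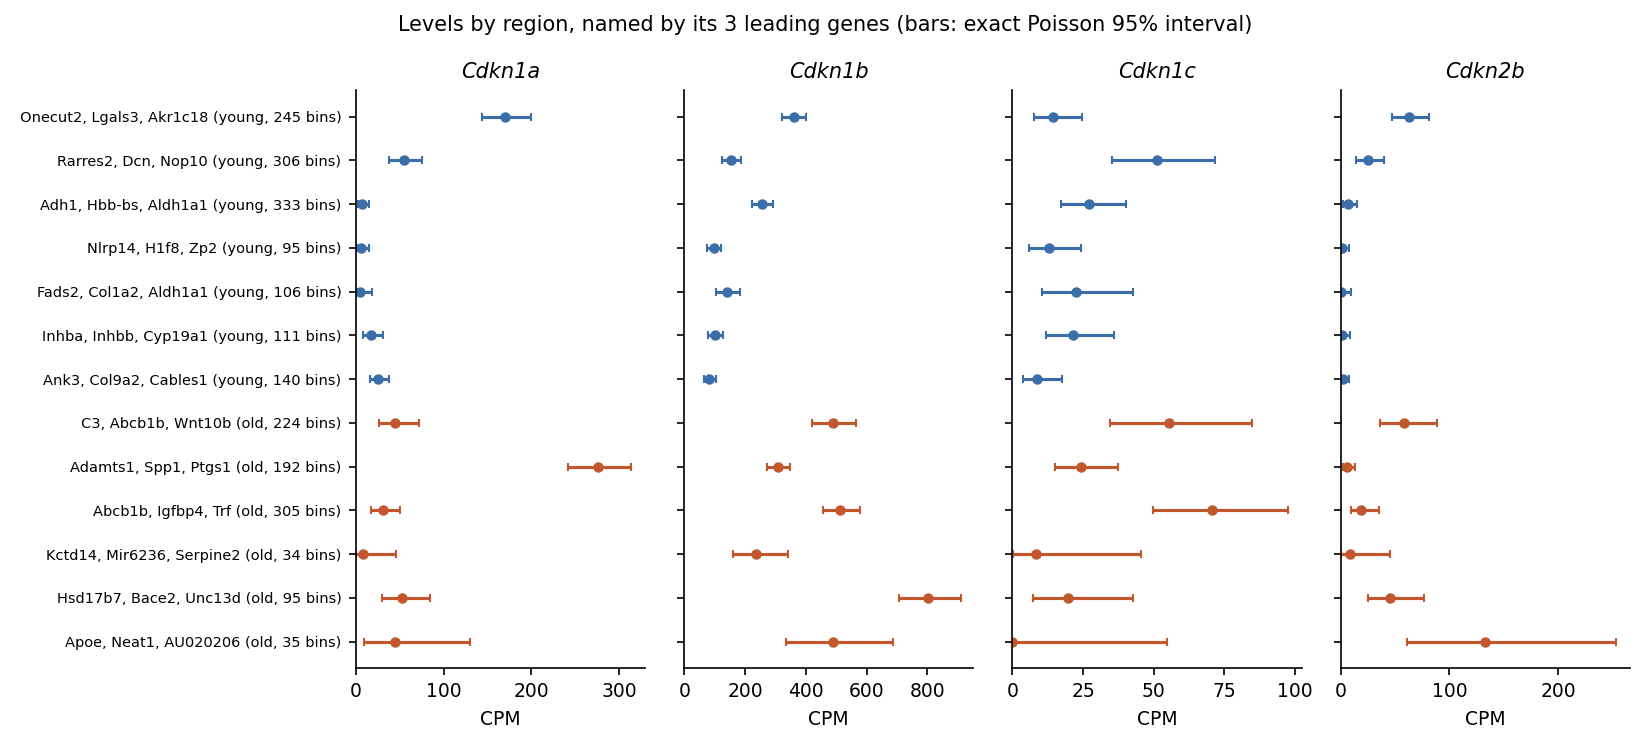
CPM of Cdkn1a, Cdkn1b, Cdkn1c and Cdkn2b in each region of at least 20 bins, named by its leading genes, its section and its number of bins, with exact Poisson 95% intervals; blue marks the young and orange the old section. Cdkn1a stands out in 1 region per section, at 170.4 and 276 CPM, while Cdkn1b is highest at 802 CPM in the old region of Hsd17b7, Bace2 and Unc13d.

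Genes with the most similar pattern were ranked over bins of 10 spacings, as a description with no p, since bins share a library and its depth. For Cdkn1b in the young section (369 bins) they were Neat1, a nuclear noncoding RNA, Palld, an actin-binding protein, and Tnc, tenascin C, with Pearson r of 0.444, 0.434 and 0.426. For the old section (256 bins) they were Hsd3b1 and Cyp11a1, enzymes of progesterone synthesis, at 0.411 and 0.388, and the noncoding RNA Malat1 at 0.391. With the minimum lowered from 300 to 200 counts after seeing the data, Cdkn1a was most like Akr1c18, a progesterone-degrading enzyme, at 0.524 in the young section, followed by Ybx1 and Sema3d at 0.477 each. The old order was Adamts1 at 0.615, Heg1 at 0.593 and Prkg2 at 0.582, where Akr1c18 and Adamts1 are themselves in the luteal and periovulatory lists. Pairs of the 7 genes themselves gave r from -0.125 to 0.207, the highest being Cdkn1a with Cdkn2b in the young section.

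The other genes of these pathways were described by their ratio of old to young CPM, again beside 22.6% higher, 25.4% lower and a median of 0.988 over all genes. Of 22 measured targets of p53 other than Cdkn1a, 12 were higher by 1.5-fold and 4 lower, with a median of 1.53. Bax, a pro-apoptotic pore protein and the most abundant, stood at 198 and 325 CPM (1.65, 1.50 to 1.81). The highest ratios were those of Bbc3, the apoptosis activator PUMA, at 2.96 (1.67 to 5.32) on 23 and 31 counts, and of Tnfrsf10b, a death receptor, at 2.31 (1.19 to 4.48) on 20 and 21. The lowest were those of Rrm2b, a ribonucleotide reductase subunit, at 0.343 (0.233 to 0.492), and Xpc, a DNA damage sensor, at 0.560 (0.383 to 0.800). This list was chosen with earlier results of these data known.

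The regulators and relatives of p53 did not share that direction, with 1 of 12 higher, 4 lower and a median of 0.815. Chek1, a checkpoint kinase, was lowest at 0.184 (0.112 to 0.287) and Trp63, an oocyte-expressed relative of p53, next at 0.439, on 30 and 6 counts with an interval that holds 1 (0.149 to 1.07). Chek2, the other checkpoint kinase, had 1.68 (1.12 to 2.51), Atr 1.31 (1.02 to 1.67) and Usp7, a deubiquitinase of p53 and Mdm2, 0.530 (0.478 to 0.586). The oocyte list, which moved with these, stood at 264 CPM in the old section against 3159.6, and its part in these ratios was not tested.

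The genes that the inhibitors act on did not share 1 direction. Of 14 cyclins and their kinases, 1 was higher, 6 were lower and the median was 0.730. The mitotic cyclin Ccnb1 had 0.222 (0.161 to 0.300) and Ccne2, a cyclin of the start of replication, 0.275 (0.0960 to 0.642). Ccnd3, a D-type cyclin, was higher at 2.00 (1.53 to 2.61), and Cdk4, the kinase that INK4 proteins bind and the most abundant of the list, went from 378 to 565 CPM (1.50 rounded, just under the limit). Cdk6, the other kinase bound by INK4 proteins, had 1.11 (0.863 to 1.42). The proliferation list as a whole stood at 2285 CPM (young) and 1266 CPM (old). In the young section it stood at 5844 CPM in oocyte foci and 1526 beyond 20 spacings. The oocyte list (3159.6 and 264 CPM) and the granulosa list (9510.3 and 2351) were lower in the old section. The part of these tissues in the ratios of this paragraph was not tested. Among 13 pocket proteins and E2F factors none was higher, 3 were lower and the median was 0.775, from E2f2 at 0.366 (0.150 to 0.781) and E2f8 at 0.385 (0.175 to 0.761) to E2f4 at 1.42 (1.15 to 1.75) and Rbl2, a pocket protein of resting cells, at 1.26 (1.07 to 1.49).

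**Figure D5:**
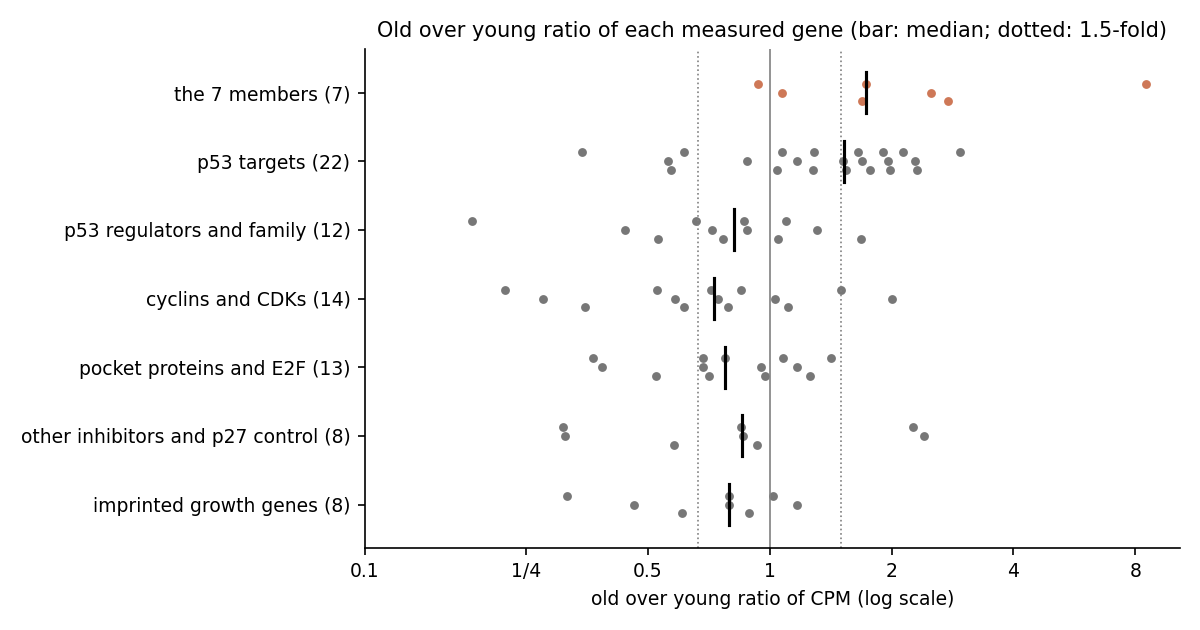
Ratio of old to young CPM on a log axis for the 7 genes and for the measured genes of each pathway list, with the number of genes in brackets, a bar at each median and dotted lines at 1.5-fold. The medians of the 7 genes and of the p53 targets, at 1.73 and 1.53, lie right of 1, and those of the other lists, from 0.730 to 0.852, left of it.

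Of 8 measured further inhibitors and controllers of p27, 2 were higher and 3 lower, with a median of 0.852. Cdkn2d, which encodes p19Ink4d, the remaining INK4 protein, was higher at 2.26 (1.61 to 3.18), and Foxo4, one of the FOXO factors known to activate Cdkn1b, at 2.41 (1.98 to 2.95). Foxo1, the most abundant FOXO gene here, stood at 482 and 149 CPM (0.309, 0.275 to 0.345), and Cks1b, a cofactor of p27 degradation, had 0.312 (0.222 to 0.428). Of 8 measured imprinted growth genes, the wider family of Cdkn1c, none was higher and 3 were lower, with a median of 0.795. Plagl1 had 0.316 (0.230 to 0.425) and Peg3 0.461 (0.358 to 0.586), Ndn 1.02 (0.828 to 1.26) and Meg3 1.17 (0.959 to 1.43). Kcnq1ot1, the noncoding RNA that silences the paternal Cdkn1c allele, stood at 193 and 153 CPM (0.795, 0.703 to 0.898) while Cdkn1c stood at 22.1 and 38.3.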

How the data were processed

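The deposited tables hold whole-number counts per gene and bead, and separate deposited tables the bead positions, without a stated length unit. The build was mm10, per the submitters' processing notes. Not given in the sources used here are the read aligner, the counter and whether a count is 1 molecule or 1 read. All beads with counts were kept. Counts were summed per section, bin or region and divided by the total there (CPM). Levels carry exact Poisson and ratios exact conditional binomial (Clopper-Pearson) 95% intervals. PCR duplicates, if counted, would make these too narrow. A gene was measured with at least 20 counts in 1 section and called higher or lower at 1.5-fold. Of 22204 gene names, 18804 matched RefSeq (GRCm38.p6).

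Bins of 5 bead spacings (the median distance between neighbouring beads with counts) held at least 500 counts. The 14 marker and 6 pathway lists and the 7 genes were chosen with earlier results of these data known. Regions came from 2000 variable genes, 20 components, 15 neighbours and Leiden resolution 1.0 (scanpy 1.11.5). Patches are adjoining rich bins, at least 10 together. Of each pathway list, up to 2 highest and 2 lowest ratios and the most abundant gene were named, and the 3 most similar genes per ranking. Python 3.11.15, numpy 2.4.6 and scipy 1.17.1 were used. The ratio steps were tested on simulated data. Alternatives covered bead depth, scaling, bin size, the size of the rich class, list members, quadrants, resolution, focus thresholds and edge width.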

Additional observations from a re-analysis of the deposited data

Results flagged for a closer look

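Several contrasts between marker-rich and other bins had intervals on opposite sides of 1 at the 2 ages, and the difference between the sections was not tested. For Cdkn1a the luteal-rich over other ratio was 8.40 when young and 0.370 when old, and the macrophage-rich ratio 2.03 and 0.272. Its adipocyte-rich ratio, on a list with counts of Plin1 and Plin4 alone, was 2.50 and 0.290. In the other direction, its granulosa-rich ratio was 0.323 and 1.63, and its proliferation-rich ratio 0.303 and 1.43. The Cdkn1b ratio in interstitial-rich bins was 1.26 and 0.796. Marker-rich classes overlap and share 1 set of comparison bins, so these values are not separate from one another. In the old section, bins rich in the proliferation list without the periovulatory list had Cdkn1a at 32.1 CPM (14.7 to 60.8), and bins rich in both at 295 (235 to 366). Most old periovulatory-rich bins are comparison bins for the luteal, macrophage and adipocyte lists. Without them, old luteal-rich bins had Cdkn1a at 53.6 CPM (34.3 to 79.8) and the rest at 31.4 (21.8 to 43.9), which overlap. Granulosa-rich bins without them stood at 36.6 CPM (18.9 to 63.8) and the rest at 38.3 (28.0 to 51.0).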

How the results depend on the processing

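Of 349 values under other settings, 304 stayed within the counting interval of the reported value or, for numbers of genes or regions, within 1.5 times of it. The old over young ratio of Cdkn1a turned to 0.809 without the periovulatory-rich bins, was 7.30 without the luteal-rich bins, 1.48 without both, 1.97 with equal weight per bin, 3.66 without the young and 3.42 without the old quadrant of low x and high y, and 2.02 without the old quadrant of low x and low y. That of Cdkn1b was 2.86 without the periovulatory-rich bins, 2.95 without those and the luteal-rich bins, 2.21 with equal weight per bin, 2.16 without the young and 2.10 without the old quadrant of low x and high y, and 2.81 without the old quadrant of high x and low y. Without both bin classes Cdkn1c had 2.62 and Cdkn2b 3.27, and Cdkn2a had no young count left, so no value. The young periovulatory-rich bins left out in these removals were partly taken by bin order, as given above. Cdkn2b had 2.60 without the luteal-rich bins and 1.15 without the old quadrant of low x and high y. The count of 5 higher genes was 3 at 2-fold, 3 without that quadrant and 3 without both bin classes. Higher cyclins and kinases numbered 2 on beads of at least 200 counts, and lower pocket proteins and E2F factors 6 with trimmed-mean scaling, which moved the median of all genes to 0.910, or -0.14 on the log2 scale, and that of the 7 to 1.60.

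The Cdkn1a periovulatory ratio was 5.68 for the highest 10% of bins, 2.24 for the list without Adamts1 and 5.92 without the old quadrant of low x, low y. The luteal ratios without the quadrant of low x and high y were 4.98 (young) and 0.750 (old) for Cdkn1a, 1.32 for Cdkn1b (old), and 4.61 (young) and 7.79 (old) for Cdkn2b, which had 2.14 (old) without that of high x and low y. For Cdkn1b in the young section it was 2.13 for the highest 10%, 2.00 for the list without Sfrp4 and 2.21 without the quadrant of low x and low y. At Leiden resolution 0.5, 1 region had 20 bins in each section. The outer over inner ratio of Cdkn1a in the young section was 0.428 when the outermost and innermost of 3 equal classes of bins were compared. The causes were not tested. No paired analysis was possible because each age has 1 section and the sections share no replicate number. Counts limit Cdkn2a most, with 8 and 31.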
